A study of Rattus norvegicus with 18 samples.

Results

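The comparison set adult rats, whose femur was broken at an age of 26 weeks, against young rats broken at 6 weeks, at each of 6 times of repair. It used 12 of the 18 arrays of the series, 6 per age, matched by time (no fracture, then healing for 3 days or for 1, 2, 4 or 6 weeks), and 8740 of the 8799 probe sets of the array, since 59 control probe sets were left out. All animals were intact female Sprague-Dawley rats, and in the fractured groups the left femur was fitted with a steel rod in the marrow cavity and broken at mid-shaft by a closed method. Rats without a fracture, chosen by chance, were the sham controls. There was 1 array for each age and time, and each array read RNA pooled from 2 rats, so the 6 times stood in as replicates of an age and the p-values measure only the spread between these arrays. The 6 arrays of older rats, 52 weeks old, entered the fits to share the estimate of spread, and a few of their values are set beside those of the other ages.

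A fracture heals through a sequence of inflammation, a soft callus of cartilage, replacement of that cartilage by woven bone, and remodelling by osteoclasts. Blood cell formation goes on in the marrow cavity, and the rod and the fracture disturb it. Muscle lies directly on the bone surface and is bruised by the same injury. The sampled piece was the middle of the femur with callus, cortical bone and marrow together, and muscle transcripts were measured with it. In such a mixed piece, fewer cells of a type and less RNA per cell cannot be told apart.

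The signal of a probe set is its fluorescence after scaling of each array, and differences below are adult minus young on the log2 scale with signals below 20 set to 20. Markers of bone and marrow were present: collagen type I (Col1a1), osteocalcin (Bglap) and beta globin (Hbb), as well as skeletal muscle myosin (Myh2), gave strong signals with no fracture at both ages. Between 12.3% and 20.1% of probe sets lay below the floor of 20 on the 12 arrays. The ratio of 3' to 5' probe signal for actin, which grows when RNA is degraded, was 1.5 to 2.72 on the young arrays and 1.71 to 2.27 on the adult arrays. It was highest at both ages with no fracture (2.61 young, 2.1 adult) and at 6 weeks (2.72 young, 2.27 adult), and the GAPDH ratio was 3.78 on the young array of 6 weeks against 1.15 to 2.15 on the other 11. The part of RNA quality in the results at those times was not tested. The adult and young arrays were least alike with no fracture, where Pearson's r over probe sets was 0.949, and most alike at 1 week, where it was 0.98.

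How many transcripts differed at each time was counted first, 1 array against 1 array and hence with no test. With no fracture, 680 probe sets (7.78%) were at least 2-fold higher in the adult and 601 (6.88%) at least 2-fold lower. At 3 days these numbers were 394 (4.51%) and 423 (4.84%). At 1 week they were smallest, 234 (2.68%) and 264 (3.02%). At 2 weeks there were 377 (4.31%) higher and 310 (3.55%) lower. Later the lower side was the larger one, with 235 (2.69%) higher and 594 (6.8%) lower at 4 weeks and 461 (5.27%) higher and 575 (6.58%) lower at 6 weeks. That split depended on the processing. With no fracture, 53.1% of the probe sets past 2-fold were higher in the adult as deposited, 45% after quantile normalization and 41.9% with a floor of 100, and at 3 days 48.2% as deposited and 27.2% with that floor. At 4 weeks 28.3% were higher as deposited, 44.6% after quantile normalization and 43.5% after median centring. At 6 weeks the share was 44.5% as deposited and 54.9% after median centring. The intact femurs differed at more probe sets than any pair of calluses.

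**Figure D1:**
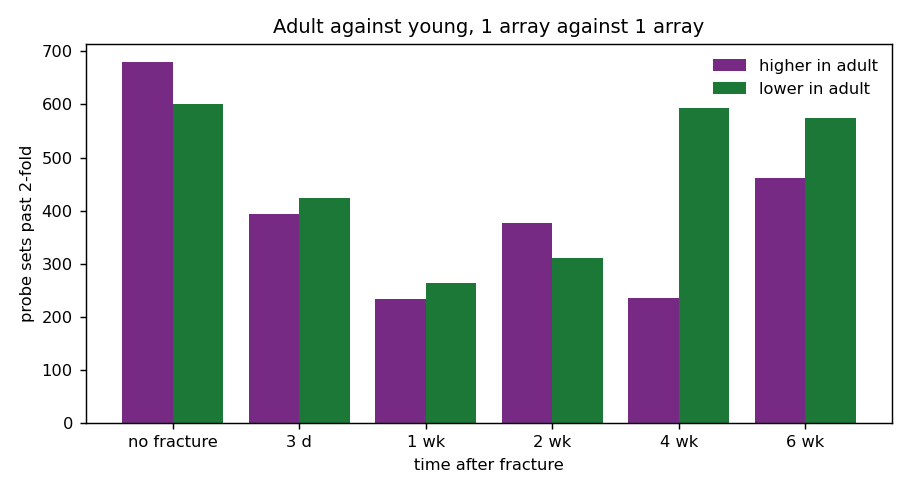
Bars give the number of probe sets at least 2-fold higher (purple) or lower (green) on the adult array than on the young array of the same time, of 8740; the horizontal axis is time after fracture. The counts are highest with no fracture (680 and 601) and lowest at 1 week (234 and 264).

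Which transcripts differed between the ages at all times was tested with limma, with time as a factor. 7 probe sets (0.0801%) passed at an adjusted p below 0.05, of which 3 (0.0343%) were higher and 4 (0.0458%) lower in the adult, and all 7 had the same direction at 6 of 6 times. The higher share of the calls was 42.9% as deposited, 50% of 2 calls after quantile normalization and 55.6% of 9 calls after median centring. The 3 that were higher were a myogenic transcription factor (Myf6), a muscle actin-crosslinking protein (Flnc) and an extracellular matrix glycoprotein (Efemp1). The 4 that were lower were a receptor of B cells and antigen-presenting cells (Cd40), a kinase of blood-forming cells (Map4k1), a GTPase-activating protein (Arhgap30) and a monocarboxylate transporter family member (Slc16a6). The number rested on the shared estimate of spread and on single times: fitted on the 12 arrays alone no probe set passed in limma (710 had an unadjusted p below 0.05), none passed without 3 days, 1 week, 2 weeks or 4 weeks, 3 passed without 6 weeks and 12 without no fracture. With the actin ratio added to the fit, 3 of the 7 passed.

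Myf6, also called MRF4, is a transcription factor of mature and regenerating muscle fibres. Its signal had a lowest, median and highest value of 329.2, 449.9 and 808.8 on the young arrays and 514.9, 640 and 1548.4 on the adult arrays. The ranges overlapped because both ages peaked at 1 week, but the adult array was the higher one at each time, from 0.27 at 6 weeks to 0.94 at 1 week on the log2 scale. The mean difference was 0.60 ± 0.08 (SE; limma adjusted p = 0.0322).

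Flnc, filamin C, links actin filaments at the Z-disc and the muscle cell membrane. Its signal ran from 733.8 through a median of 800.5 to 1148.5 on young arrays and from 996.7 through 1356 to 1748.8 on adult arrays. The ages were farthest apart at 2 weeks (1.03) and closest at 6 weeks (0.42), with a mean difference of 0.60 ± 0.08 (SE; limma adjusted p = 0.0322). A second Flnc probe set differed by 0.33 in the same direction at 6 of 6 times without passing (limma adjusted p = 0.229).

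Efemp1, fibulin-3, is a secreted glycoprotein of elastic tissue. Its signal was weak, 10.6 to 37.9 with a median of 27.3 on young arrays and 48.8 to 93.5 with a median of 74.1 on adult arrays. Alone among the 7 probe sets, the ranges of the ages did not overlap, although 2 young arrays were under the floor. The difference was 1.40 ± 0.21 (SE; limma adjusted p = 0.0439) and a second, brighter Efemp1 probe set gave 0.78 (limma adjusted p = 0.465). With the floor at 100 neither age kept a signal above it.

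Cd40 is a member of the TNF receptor family through which B cells receive help from T cells. Its signal was 45.7 to 151.9 with a median of 85.9 in young rats and 22.8 to 82 with a median of 35.6 in adult rats. In both ages it was high with no fracture and at 6 weeks and low from 3 days to 2 weeks. The adult array was the lower one at each time, and the mean difference was -1.03 ± 0.13 (SE; limma adjusted p = 0.0322). With the floor at 100 the difference of Cd40 was -0.20 and did not pass.

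Map4k1, hematopoietic progenitor kinase, restrains antigen receptor signalling in lymphocytes. Its signal ran from 233.8 through 574.8 to 1607.4 in young rats and from 109.9 through 307.9 to 894.7 in adult rats. It followed the course of Cd40, with the largest gap at 6 weeks, where the young array read 1607.4 and the adult array 485.4. The mean difference was -1.08 ± 0.16 (SE; limma adjusted p = 0.0439), and a second Map4k1 probe set gave -0.55 with the same sign at 6 of 6 times (limma adjusted p = 0.24).

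Slc16a6 encodes monocarboxylate transporter 7, and its signal was 141.1 to 662.3 with a median of 211.4 in young rats and 58.9 to 426.2 with a median of 113 in adult rats. The mean difference was -0.96 ± 0.13 (SE; limma adjusted p = 0.0322). Arhgap30, which switches off small GTPases, ran from 120.3 through 259.1 to 647.5 in young rats and from 81.1 through 143.6 to 349.5 in adult rats. Its differences were the most even of the 7, between -0.57 at 2 weeks and -0.98 at 3 days, with a mean of -0.76 ± 0.11 (SE; limma adjusted p = 0.0439). Both genes were highest in the intact femur at both ages. In an exact sign-flip permutation test of the 6 paired differences (two-sided), the smallest p that 6 pairs allow is 0.0312, which 1 direction at all 6 times gives by construction and which the 7 genes therefore have; after adjustment over 188 named genes the smallest value was 0.12.

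**Figure D2:**
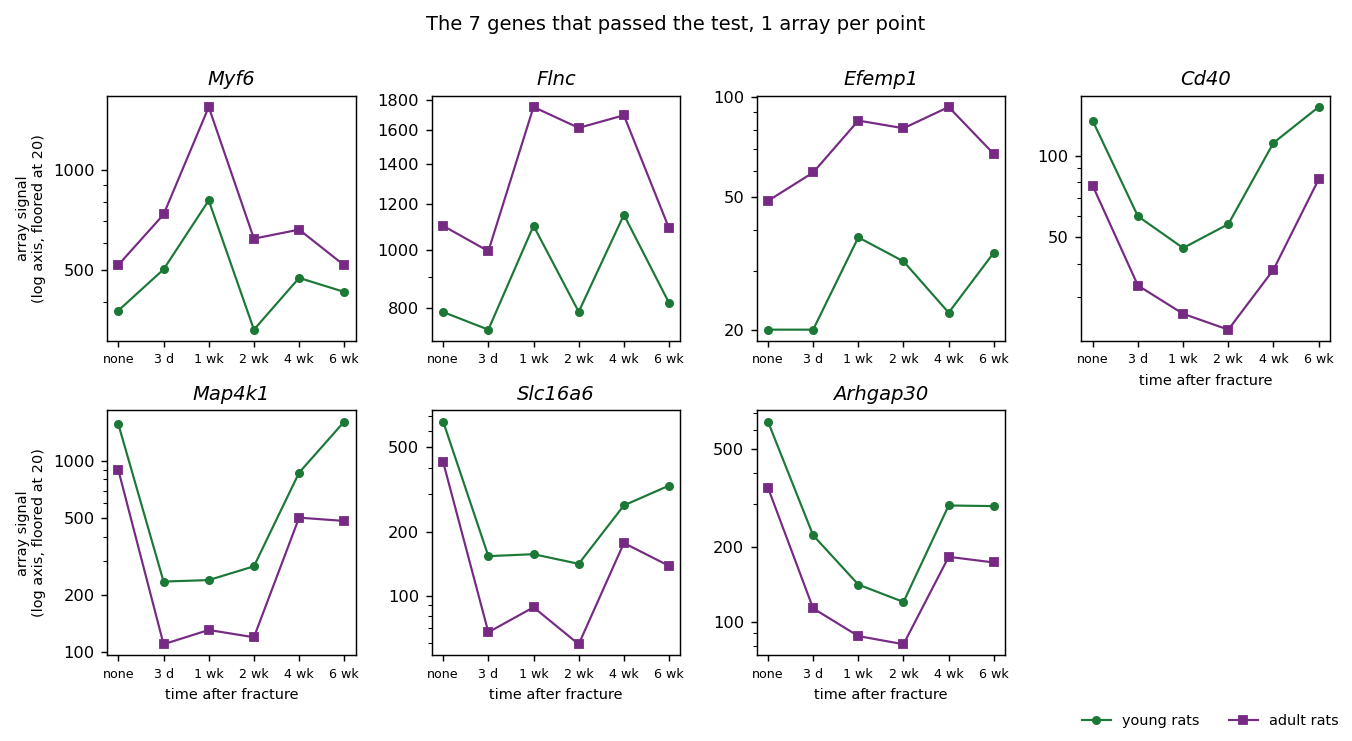
Each panel gives 1 gene's signal (log axis, values under 20 drawn at 20) against time after fracture in young (green circles) and adult (purple squares) rats, 1 array per point. The adult line lies above the young line at all 6 times for Myf6, Flnc and Efemp1 and below it for Cd40, Map4k1, Slc16a6 and Arhgap30.

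The start regions of 4 of these genes are shown because a pair of muscle-related genes and a pair of genes of blood-forming cells moved in opposite directions. The choice was made after their values were seen. The sequences are from RefSeq (build GRCr8), 250 bases before to 50 after the annotated start, 5' to 3' on the gene's strand; promoters of 5 of the 7 genes were found. For Myf6 (chr7:44701264-44701563, minus strand) and Flnc (chr4:58999297-58999596, plus strand), capitals mark the E-box CANNTG, the motif that myogenic basic helix-loop-helix factors bind, and the MEF2 consensus, bound by partner factors in muscle. For Map4k1 (chr1:93398319-93398618, plus strand) and Arhgap30 (chr13:86354483-86354782, plus strand), they mark AGGAAG, a core of ETS family motifs, on either strand.
Myf6: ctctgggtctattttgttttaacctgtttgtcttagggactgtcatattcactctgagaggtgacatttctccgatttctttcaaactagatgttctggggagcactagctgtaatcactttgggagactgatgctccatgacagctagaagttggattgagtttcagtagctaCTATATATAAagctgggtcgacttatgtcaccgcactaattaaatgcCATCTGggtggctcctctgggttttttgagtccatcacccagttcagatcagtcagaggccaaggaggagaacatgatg
Flnc: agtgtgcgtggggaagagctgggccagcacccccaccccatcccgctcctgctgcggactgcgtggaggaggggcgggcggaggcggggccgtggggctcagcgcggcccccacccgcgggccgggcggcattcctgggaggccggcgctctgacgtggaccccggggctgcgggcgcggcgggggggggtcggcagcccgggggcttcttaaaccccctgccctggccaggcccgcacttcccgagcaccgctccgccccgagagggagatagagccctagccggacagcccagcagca
Map4k1: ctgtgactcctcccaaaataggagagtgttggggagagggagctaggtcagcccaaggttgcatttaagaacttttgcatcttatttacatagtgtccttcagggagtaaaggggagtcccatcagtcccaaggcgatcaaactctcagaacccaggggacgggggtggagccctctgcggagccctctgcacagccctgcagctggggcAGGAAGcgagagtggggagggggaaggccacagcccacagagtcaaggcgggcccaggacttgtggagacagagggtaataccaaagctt
Arhgap30: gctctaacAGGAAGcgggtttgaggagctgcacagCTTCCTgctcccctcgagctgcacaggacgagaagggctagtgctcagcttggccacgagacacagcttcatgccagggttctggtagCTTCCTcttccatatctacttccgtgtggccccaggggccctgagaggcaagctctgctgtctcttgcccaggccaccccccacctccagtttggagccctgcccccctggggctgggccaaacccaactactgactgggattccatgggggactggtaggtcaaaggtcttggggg
Myf6 held 1 E-box and 1 MEF2 consensus in this window and Flnc held neither. Map4k1 also held 1 E-box, not marked above, and Arhgap30 held none, so the E-box did not separate the pairs. The MEF2 motif was searched in 2 forms: a first one, with fixed end letters and any letters between, matched neither gene and was in 3.84% of all rat promoters, and the consensus, taken afterwards, was in 3.29%. AGGAAG occurred 1 time near Map4k1 and 3 times near Arhgap30. Of 33469 rat promoters of the same length, 72.1% held CANNTG and 34.5% AGGAAG on either strand, so a match is a description of the letters and not a binding site.

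Further genes of lymphocytes and plasma cells had a lower adult mean without passing the test. Over all probe sets, 190 (2.17%) were lower in the adult at 6 of 6 times and 197 (2.25%) higher, and 432 (4.94%) had an unadjusted limma p below 0.05 and a lower adult mean against 404 (4.62%) with a higher one. Ighvl1, an immunoglobulin heavy chain variable segment, read 161.3, 1224 and 3857.3 (lowest, median, highest) in young rats and 30.6, 586.3 and 1846.2 in adult rats. Its difference was -1.60 ± 0.27 (SE; limma adjusted p = 0.0899), the most negative among probe sets of 1 gene with the same sign at all times and a mean signal of at least 200. Iglc1, the lambda light chain constant region, gave -1.19 ± 0.22, and Cd72, a B cell surface inhibitor, read 159 to 2255.5 in young and 88.3 to 1126.2 in adult rats. The differences of Cd72 were even, between -0.68 at 3 days and -1.13 at 1 and 2 weeks. Spn, the leukocyte sialoglycoprotein CD43, gave -0.98, and Lig4, a ligase of DNA end joining and antigen receptor rearrangement, -0.90. Of the 6 B cell and immunoglobulin genes measured, 5 had a lower adult mean, 2 at an unadjusted limma p below 0.05 and none after adjustment; their median difference was -0.41, against 0 over all probe sets. Their summed signal was 816 to 5909 on young arrays and 880 to 2657 on adult arrays, and none of the 6 was under the floor on all 12 arrays. The gap was widest late, with a sum of 5909 in the young and 2434 in the adult at 6 weeks. Of these sums Cd24 alone made up 3002.1 and 1146.7. The adult sum was the higher one at 3 days (816 young, 880 adult) and at 1 week (879 young, 968 adult). The 25 T and NK cell genes had a median of -0.03, 10 with a higher and 15 with a lower adult mean. 1 of the 25, Il2rb, a subunit of the interleukin 2 receptor, had an unadjusted limma p below 0.05, at -0.43 and lower at 6 of 6 times.

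Genes of regenerating muscle and some of mature muscle lay on the other side. Of 17 embryonic muscle and myogenic genes, 15 had a higher adult mean, 6 at an unadjusted limma p below 0.05 and 1, Myf6, after adjustment. Their median was 0.28, and it was largest at 2 weeks (0.83), when 14 of the 17 read higher in the adult. With no fracture and at 3 days, 7 of the 17 read lower in the adult. Their summed signal was also lower in the adult then, 7276 in the young and 6082 in the adult with no fracture and 11499 and 8274 at 3 days. Myl4, the embryonic and atrial light chain, read 714.1 in the young and 1926.3 in the adult at 1 week, 181.5 and 537.2 at 2 weeks, and 46.9 and 252.5 at 4 weeks. It read lower in the adult at 3 days (184 young, 149.3 adult) and at 6 weeks (68.2 young, 51.8 adult). Its mean difference was 0.87 ± 0.34 (limma adjusted p = 0.448). Myh8, the perinatal myosin heavy chain, gave 0.70, Ankrd1, a stretch-responsive ankyrin repeat protein, 0.63, and Myod1, the myoblast determination factor, 0.41. Among probe sets read at a mean signal of at least 200 and higher at 6 of 6 times, Rrad, a small GTPase of muscle, led with 0.99, from 355, 661.8 and 1353.3 in young rats to 518.1, 1329 and 3428.8 in adult rats. Pdlim3, a Z-disc protein, gave 0.91, Trim54, a muscle ring finger protein, 0.72, and Des, the muscle intermediate filament desmin, 0.66. None of these 4 passed after adjustment (limma adjusted p between 0.222 and 0.346). That ranking was not one of muscle genes alone. Its 12 highest genes also included Crabp2 (0.95), Clu (0.89), Gsta1 (0.71) and Errfi1 (0.71), which did not pass either.

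Genes of the contractile apparatus of fast and common muscle had a median of 0.09 over all times. Of the 35 genes, 22 had a higher and 13 a lower adult mean. The direction changed with time: 30 read higher in the adult with no fracture and 27 at 2 weeks and at 4 weeks. At 1 week and at 6 weeks 24 read lower. Their median was largest at 2 weeks (0.40), as for the myogenic genes, when their summed signal was 189730 in the young and 221668 in the adult. Their summed signal was 79808 to 237753 on young arrays and 71691 to 241984 on adult arrays, and the ranges overlapped; the part of muscle content in the differences of the myogenic genes was not tested. All 8 smooth muscle genes had a higher adult mean, 3 at an unadjusted limma p below 0.05 and none after adjustment, with a median of 0.38. Their median was 0.85 at 4 weeks and 0.87 at 6 weeks but 0.11 with no fracture. Myh11, the smooth muscle myosin heavy chain, read 229 and 194.9 in the young and 557.4 and 396.5 in the adult at 4 and 6 weeks. Myl9, a regulatory light chain, gave 0.80 over all times. The fractured times alone gave a limma contrast with 14 probe sets (0.16%) past the threshold, 3 higher and 11 lower. Fitted on the fractured arrays alone, 12 passed, 1 higher and 11 lower, and Myf6 and Flnc did not (limma adjusted p = 0.0506 each, against 0.04995 in the contrast). The 3 higher were Itga7, the laminin-binding integrin of muscle (0.80 ± 0.10), Myf6 (0.63) and Flnc (0.62), and among the 6 lower ones with a gene symbol were Cd40 (-1.08), Slc16a6 (-1.03) and the high-affinity IgE receptor beta chain Ms4a2 (-1.35 ± 0.19).

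Of the 39 gene lists, those of bone and fibrous matrix had the medians farthest from 0 in the intact femur. With no fracture, all 10 bone matrix and osteoblast genes measured read lower in the adult, 8 of them at least 2-fold, and 19 of 20 fibrous matrix genes, 10 of them at least 2-fold. The medians were -1.35 and -1.23. After fracture the fibrous matrix list lay near 0 or above, with medians of 0.03 at 3 days and 0.67 at 6 weeks. The bone matrix list came closer to 0 but mostly stayed below it. Its medians were -0.20, -0.18, -0.28, -0.08 and 0.14 in order of time. Its summed signal was lower in the adult at each fractured time, as at 2 weeks with 124970 in the young and 102612 in the adult. Whether the adult minus young difference depended on fracture was tested as a limma interaction, the mean difference over the 5 fractured times minus the difference with no fracture. A positive value means that the adult was relatively higher after fracture. There was 1 intact array per age, which adds nothing to the estimate of spread, so the spread of intact femurs did not enter this test. The summed signal of the 14 erythroid genes, a measure of marrow in the piece, was 78978 on the young intact array and 152944 on the adult one, and its part in the result was not tested.

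In that interaction 564 probe sets (6.45%) passed, 220 positive (2.52%) and 344 negative (3.94%). The positive share was 39% as deposited, 54.2% after quantile normalization and 51.4% after median centring. Many negative ones were near the floor: of 677 probe sets under the floor on all 10 fractured arrays, 122 passed and 107 of these were negative, while of 3950 with a mean signal of at least 200, 219 passed and 153 were positive. Of the 20 fibrous matrix genes, 10 passed and all 10 were positive (Col12a1, Col3a1, Col5a1, Col5a2, Dcn, Lox, Lum, Postn, Serpinh1 and Vcan). Of the 10 bone matrix genes 3 passed (Col1a1, Sparc and Spp1), and of 8 cartilage genes 2 (Acan and Col11a1), all of them positive. On the 12 arrays alone these counts were 5, 1 and 1, and the cartilage count was 1 without 1 week or without 4 weeks.

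Lox, the lysyl oxidase that crosslinks collagen, had the largest positive interaction among called probe sets of 1 gene, 6.74 (limma adjusted p = 9.64e-05). Its signal with no fracture was 1878.4 in the young and 22.8 in the adult, and from 3 days to 2 weeks it was 7188.8 to 8618 in the young and 8204.9 to 10968.8 in the adult. A second Lox probe set read 1349.6 and 268.4 with no fracture, an interaction of 2.62 that also passed, so the size differed between probe sets and the direction did not. Col5a2, a fibril-organising collagen chain, read 6871.2 and 1257.6 with no fracture and lay between 8900.6 and 11737.5 on every fractured array of both ages (2.46; limma adjusted p = 0.000193). Col11a1 read 1735.3 and 129 with no fracture and Acan, the cartilage proteoglycan aggrecan, 319.3 and 24.4, with interactions of 3.91 and 4.44. Serpinh1, the collagen chaperone HSP47, read 3947.3 and 459.7 (3.49).

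Col1a1, the main collagen of bone, read 22884.1 in the young and 6846.2 in the adult with no fracture. After fracture the young arrays read 18491.2 to 31074.8 and the adult arrays 15689.6 to 23358.9, and the adult was the lower one at 6 of 6 times (interaction 1.51; limma adjusted p = 0.0281). Spp1, osteopontin, read 6863.7 and 1970.7 with no fracture (1.63). Bglap, osteocalcin, kept a lower adult level for longer: it read 18967.6 and 6591.7 with no fracture, 10141.6 and 4794.3 at 3 days, 15208.2 and 7236.1 at 1 week, 20087.8 and 12059.2 at 2 weeks, and 19760.7 and 18554.8 at 4 weeks. Its mean difference was -0.79 ± 0.19 (limma adjusted p = 0.24) and its interaction 0.89 did not pass. The intact arrays of older rats, a different group, read 2520.8 for Col1a1, 692.9 for Col5a2, 189.1 for the second Lox probe set and 63.1 for Col11a1. For these 4 probe sets the young intact array was the highest of the 3.

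**Figure D3:**
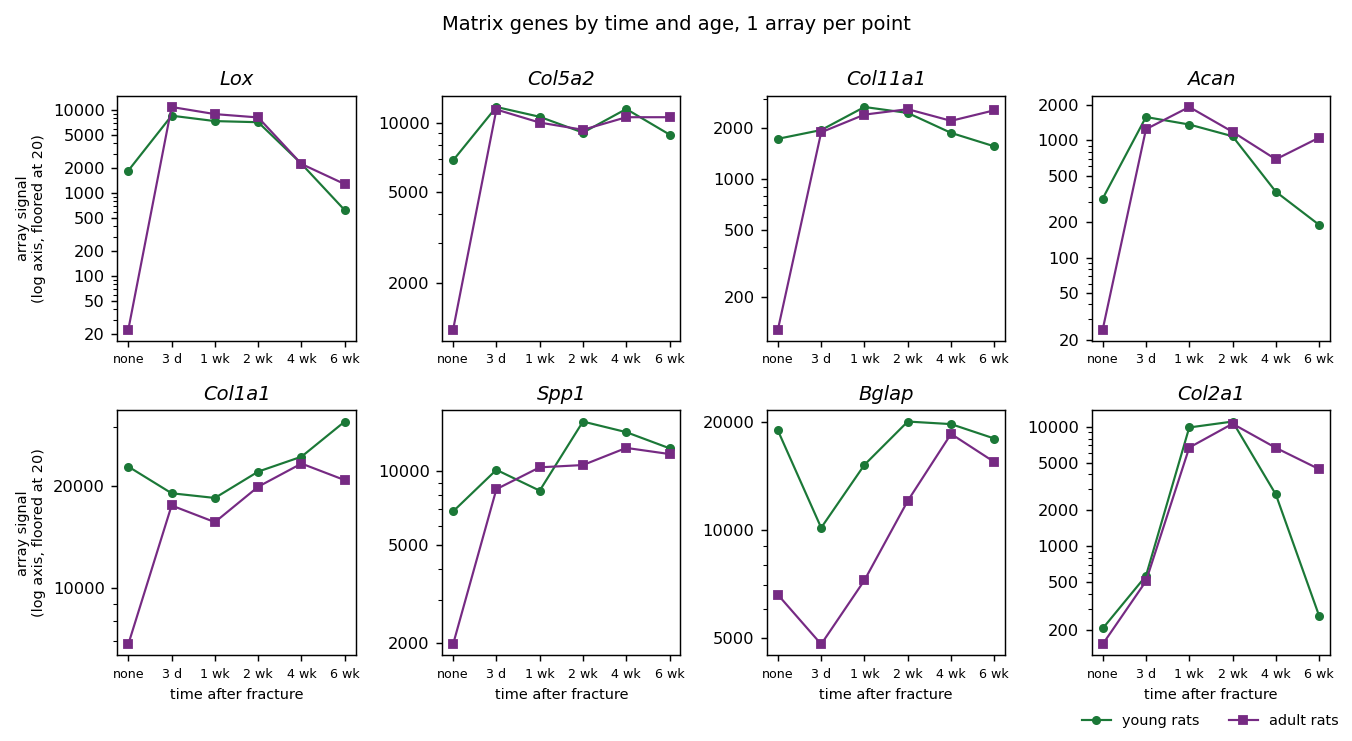
Each panel gives 1 gene's signal (log axis) against time after fracture in young (green circles) and adult (purple squares) rats, 1 array per point. For Lox, Col5a2, Col11a1 and Acan the adult point with no fracture lies far under the young one (22.8 against 1878.4 for Lox) while the lines run together from 3 days to 2 weeks. For Col2a1 the adult line lies above the young one at 4 weeks (6686.2 adult, 2719.3 young) and farther above it at 6 weeks (4431.1 adult, 261.5 young).

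Cartilage genes of the soft callus differed between the ages in both directions: 7 of 8 read lower in the adult at 1 week, 5 read higher at 4 weeks and 7 at 6 weeks. Col2a1, the main collagen of cartilage, read 9902.7 in the young and 6720.5 in the adult at 1 week, 11099.8 and 10641.2 at 2 weeks, 2719.3 and 6686.2 at 4 weeks, and 261.5 and 4431.1 at 6 weeks. Col10a1, the collagen of hypertrophic chondrocytes, read 6500.7 and 4894.1 at 2 weeks and 86.5 and 394.2 at 6 weeks. At 6 weeks Acan read 190.9 and 1056.4 and Comp, a cartilage matrix protein, 162.4 and 473.8. At 4 weeks Col9a1 (-0.81), Cnmd (-0.51) and Chad (-0.50) read lower in the adult. The median of the 8 cartilage genes was -0.64 at 1 week, 0.24 at 4 weeks and 1.13 at 6 weeks. The young array of 6 weeks was the one with the high GAPDH ratio of 3.78, and the part of RNA quality in these values was not tested. Each of these values compares 1 array with 1 array. A limma contrast of 4 and 6 weeks against 1 and 2 weeks called no probe set (0%); 872 had an unadjusted p below 0.05 and the smallest adjusted p was 0.0741, in a fit with 4 residual degrees of freedom.

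Of the 8 osteoclast genes, 7 read lower in the adult at 3 days, 8 at 1 week, 7 at 2 weeks, 2 at 4 weeks and 4 at 6 weeks, with medians of -1.89 and -1.21 at 3 days and 1 week and 0.32 at 4 weeks. Mmp9, a gelatinase of osteoclasts and neutrophils, read 3885.7 in the young and 62.9 in the adult at 3 days, 10035.4 and 3501.8 at 1 week, 11159.8 and 9643.8 at 2 weeks, and 2306.8 and 8477.8 at 6 weeks. Acp5, the tartrate-resistant phosphatase, read 5146.6 and 499.3 at 3 days and 6932.4 and 15177.2 at 6 weeks. Ctsk, cathepsin K, which digests bone collagen, read 10258.4 and 1814.2 at 3 days and 11925.1 and 16551.9 at 6 weeks. With no fracture, 4 of the 8 genes read lower and 4 higher in the adult (median -0.11). Ctsk and Acp5 were already lower in the adult then, at 4414.4 and 691.9 for Ctsk and 3038.4 and 1047.5 for Acp5. The difference of Ctsk was -2.67 with no fracture and -2.50 at 3 days. At 6 weeks Car2 (-0.89), Itgb3 (-0.75), Src (-0.45) and Calcr (-0.04) read lower in the adult, against the same young array. Over all times 2 had an unadjusted limma p below 0.05, Car2 (carbonic anhydrase II, -1.07) and Calcr (the calcitonin receptor, -0.70), and none passed after adjustment. Unlike Ctsk and Acp5, Car2 read higher in the adult with no fracture (7040.7 young, 12514.2 adult), and it read lower at the other 5 times. Mmp13, a collagenase of hypertrophic cartilage and bone, read 5157.2 and 1455.9 at 3 days and 9552.6 and 11113.2 at 6 weeks.

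Neutrophil and erythroid genes of the marrow read alike or higher in the adult intact femur and lower in the adult callus. The neutrophil list had a median of 0.23 with no fracture, -3.35 at 3 days, -0.51 at 1 week, -1.62 at 2 weeks, -1.48 at 4 weeks and -1.02 at 6 weeks. Over all times 6 of the 7 genes had a lower adult mean, 5 at an unadjusted limma p below 0.05 and none after adjustment. S100a8, a calprotectin subunit, read 15106.5 in the young and 19857.2 in the adult with no fracture, 4897.9 and 282.5 at 3 days, 1383.3 and 830.6 at 1 week, 763.8 and 112.4 at 2 weeks, and 11870.6 and 3667.2 at 6 weeks. RatNP-3b, a neutrophil defensin, read 9070.1 and 263.8 at 3 days, with a mean difference of -1.91 ± 0.57. The summed signal of the 7 genes was 4057 to 65754 on young arrays and 1151 to 77266 on adult arrays.

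Erythroid genes showed the same turn. All 14 read higher in the adult with no fracture (median 0.67), and 12 or 13 of the 14 read lower at each fractured time, with medians of -0.34, -0.84, -1.39, -0.92 and -0.76 in order of time. Hba-a3, an alpha globin, read 4519.2 in the young and 24565 in the adult with no fracture and then 683 and 162.8, 685.8 and 105.7, 1678.1 and 461.4, 8288.4 and 4669, and 9369.5 and 5224.3. It passed the interaction at -4.10 (limma adjusted p = 0.0103), as did Urod, an enzyme of heme synthesis, at -1.28; on the 12 arrays alone no erythroid gene passed, and without 4 weeks 1 did. Gata1, the erythroid transcription factor, read 957.6 and 1154.9 with no fracture and 266.9 and 63.2 at 2 weeks. Globin genes are close copies of each other, so signal may be shared among their probe sets.

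Of 14 mast cell and eosinophil genes, 13 had a lower adult mean, 6 at an unadjusted limma p below 0.05 and none after adjustment over all times, with a median of -0.39 overall and -0.80 and -0.89 at 4 and 6 weeks. The number that read lower was 5 with no fracture and at 3 days, 11 at 1 week, 10 at 2 weeks, 13 at 4 weeks and 14 at 6 weeks, and single genes departed from that order, such as Ms4a2, farthest apart at 2 weeks (-1.84). Ms4a2 read 528.4 and 351.8 with no fracture, was under the floor in the adult from 3 days to 2 weeks (young 36.9 to 71.7), and read 326.8 and 176.8 at 4 weeks and 434.7 and 126 at 6 weeks. Prg2, the eosinophil major basic protein, read 783.2 and 101.2 at 6 weeks. The 13 macrophage genes had a median of 0.04, 7 with a higher and 6 with a lower adult mean and none at an unadjusted limma p below 0.05. Lypd8l1, the bone-derived secreted protein the study called RoBo-1, read 12909.7 in the young and 11436.9 in the adult with no fracture and was lower in the adult at all times (-1.37 ± 0.30; limma adjusted p = 0.186).

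**Figure D4:**
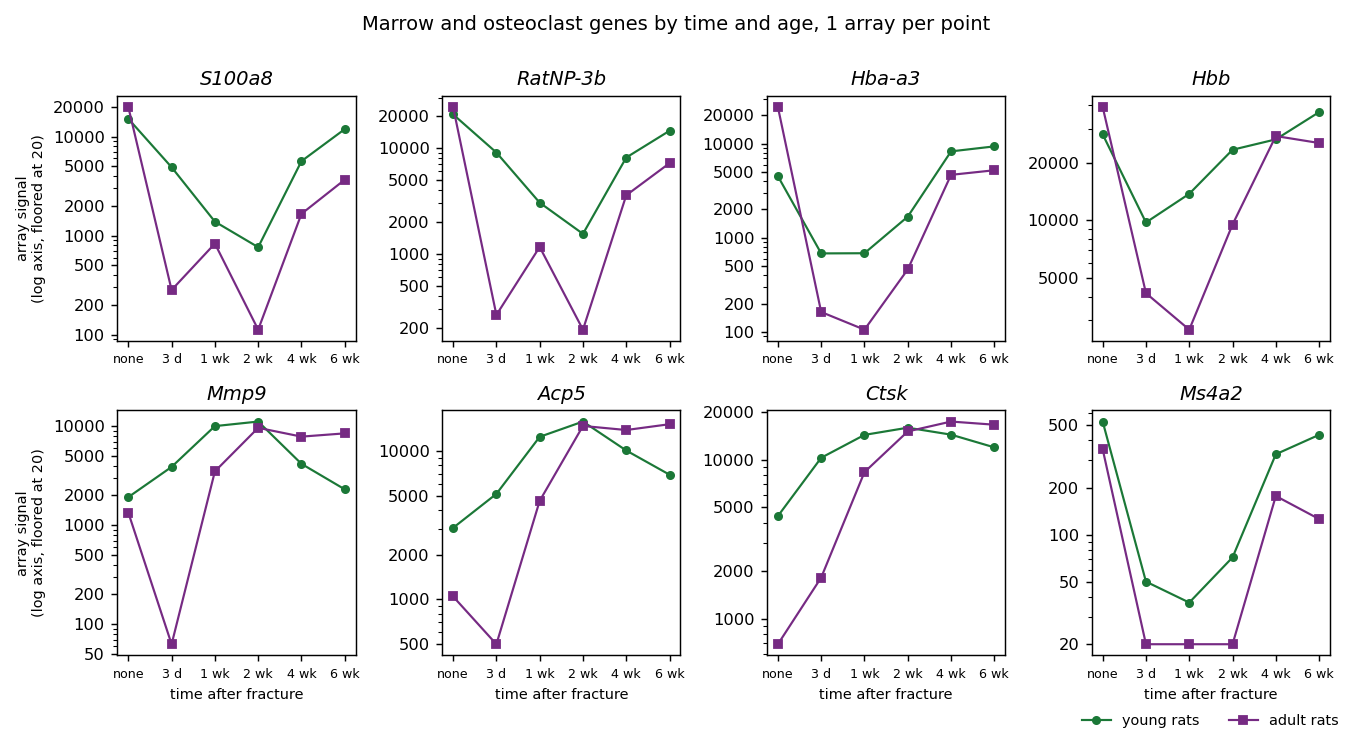
Each panel gives 1 gene's signal (log axis, values under 20 drawn at 20) against time after fracture in young (green circles) and adult (purple squares) rats, 1 array per point. S100a8, RatNP-3b, Hba-a3 and Hbb start at or above the young level in the adult and lie under it at 3 days; Mmp9, Acp5 and Ctsk start low in the adult, meet the young line at 2 weeks and lie above it at 6 weeks.

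Cell division genes separated from 2 weeks on. Of 24 cell cycle and DNA replication genes, 20 read higher in the adult at 3 days (median 0.36), while 22 read lower at 2 weeks, 22 at 4 weeks and 20 at 6 weeks, with medians of -0.55, -0.73 and -0.70. Mcm6, a subunit of the replicative helicase, read 1197.1 in the young and 1572.3 in the adult at 3 days, 1127.9 and 706 at 2 weeks, and 1722.7 and 441.9 at 4 weeks. Mcm5, another subunit, was lower at 6 of 6 times (-0.56), and Ccnd2, a G1 cyclin, read 1287.3 and 595.5 at 2 weeks. Over all times 4 of the 24 had an unadjusted limma p below 0.05 and none passed after adjustment.

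The nerve-related lists were drawn up by the study on samples that include these, so they are not independent evidence of a direction. All 9 genes of its list with a stronger rise with age had a higher adult mean (median 0.29), 1 at an unadjusted limma p below 0.05 and none after adjustment. Thbs4, a thrombospondin of tendon, muscle and nerve, read 1567.3 and 3399.7 at 1 week, 698.2 and 1892.4 at 2 weeks and 1084.8 and 2567.5 at 4 weeks. Of 7 genes with a weaker rise, 6 had a lower adult mean (median -0.21), led by Ptprz1, a receptor phosphatase of glia and osteoblasts, at -0.90. A mean over 6 times takes in the pair with no fracture, so it does not measure the rise after fracture. Ptprz1 already read 279.4 in the young and 71.6 in the adult with no fracture. Its interaction with fracture was positive, 1.27, and did not pass, so its lower mean does not show a weaker rise. Of 8 genes with a prolonged fall, 4 had a lower and 4 a higher adult mean. Nrgn, neurogranin, read 1702.6 and 2588.7 with no fracture and 344.4 and 87.8 at 4 weeks.

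**Figure D5:**
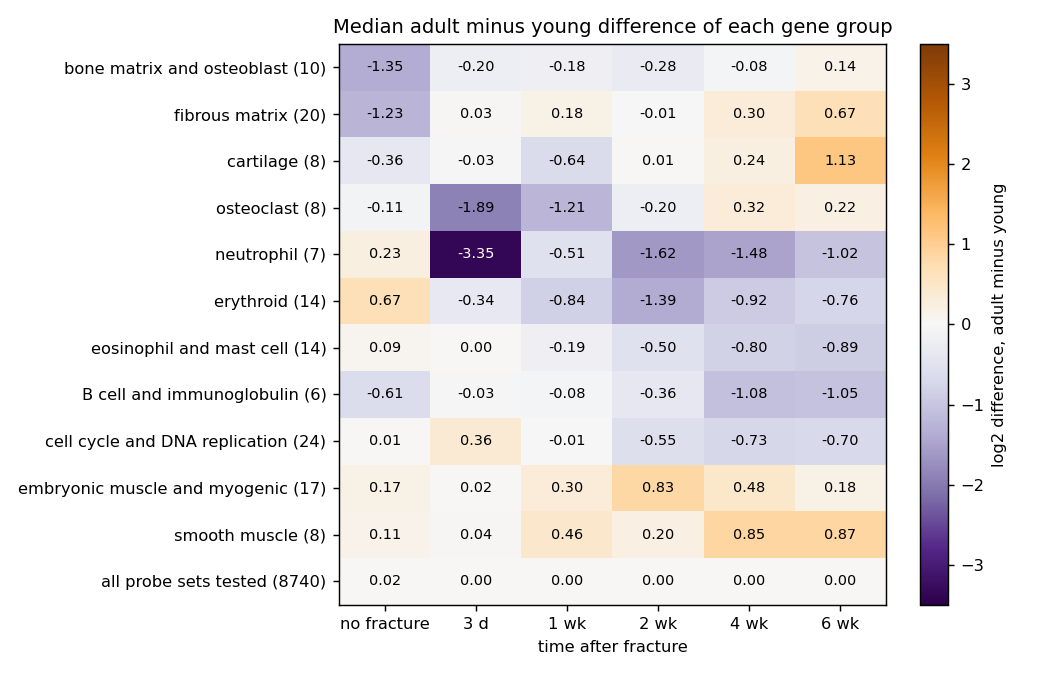
Cells give the median adult minus young log2 difference of each gene list (number of genes in brackets) at each time; purple is lower and orange higher in the adult. The matrix lists are lowest with no fracture (-1.35 and -1.23), the neutrophil list is lowest at 3 days (-3.35), and the median of all probe sets stays at 0.02 or 0.

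The same fit set the older rats beside these. It called 39 probe sets (0.446%) for older minus young and none (0%) for older minus adult, where 600 had an unadjusted limma p below 0.05 and the smallest adjusted p was 0.392. The young arrays enter both comparisons with young, so the values are only set side by side. For older minus young, Myf6 gave 0.86, Flnc 0.83, Efemp1 1.43, Cd40 -0.89, Map4k1 -0.9985, Slc16a6 -0.72 and Arhgap30 -0.67. Of the lists, the neutrophil median was -1.78 in older against young rats and -1.53 in adult against young rats, the embryonic muscle median 0.61 and 0.28, the smooth muscle median 0.54 and 0.38, and the bone matrix median -0.50 and -0.26.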

How the data were processed

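Total RNA of the mid-femur was read on Affymetrix rat genome arrays. The authors deposited 1 intensity per probe set, summarised by Affymetrix Microarray Suite with every array scaled to a common average. A signal is therefore relative to the other signals of its array. The plain mean over non-control probe sets still ran from 687.9 to 791 on the 12 arrays. Replicates were not pooled after scanning. Arrays have no sequencing depth, and their number limits the precision. No column of the table was left unused.

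Values under 20 were set to 20 before log2, and no filter was applied. Of 8740 non-control probe sets, 7006 name 1 gene in the platform annotation, 308 several and 1426 none, covering 4736 genes. A listed gene was read by its brightest probe set. limma 3.58.1 in R 4.3.3 fitted time and age as additive factors on 18 arrays (10 residual degrees of freedom, trended moderation, prior degrees of freedom 0.949). Further fits split age by fracture (8 residual degrees of freedom) or by phase (4). Benjamini-Hochberg adjustment ran over all 8740 probe sets at a threshold of 0.05. Genes taken for naming were all called genes and 12 each way of those with 1 direction at 6 times. These 12 were ranked by size of difference at a mean signal of at least 200. Leading genes of the interaction and of the contrast of phases, and up to 4 of each list with the largest difference, were added. Not all of those added appear in the text. Others named by list are members singled out after their values were seen. Members and lists were chosen with earlier results of these data known. The fits were tested on simulated data. Alternatives were scaling, floor, offset, filters, moderation, the time factor, an actin covariate, array weights, single times left out and the methods' t-test.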

Additional observations from a re-analysis of the deposited data

Results flagged for a closer look

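The 6 adult minus young differences of each named gene and list were searched for a time far from the other 5 by Dixon's ratio, which chance gives in about 1 of 20 groups. Of 188 genes 17 had such a time, in 12 of them the intact pair. Some of the 188, among them Lox, Cgref1, Col11a1, Hba-a3, Chrna4 and Irf7, were named for their interaction, that is for an intact pair apart from the rest, and some for the contrast of phases, so this count cannot be read against the share that chance gives. With no fracture the difference was far below the others for Lox (-6.36), Cgref1, a calcium-binding growth regulator (-4.10), Col11a1 (-3.75), Col5a2 (-2.45), Cntf, a ciliary neurotrophic factor (-2.31), Col1a1 (-1.74) and Fshb (-0.59), and far above them for Chrna4 (2.87), Hba-a3 (2.44), Irf7, an interferon regulatory factor (2.28), Cyp24a1, the vitamin D 24-hydroxylase (2.23), and Slc1a3 (1.49). At 3 days Spn lay apart at -2.41, Slc25a20 at -0.85, Rpl19l4 at 2.07 and Cd72, as the smallest of its differences, at -0.68. At 6 weeks Igll1 lay apart at -1.15.

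Of 39 lists, 4 had an outlying intact pair: bone matrix at -1.35, fibrous matrix at -1.23, T and NK cell at 0.23 and adipocyte at 0.49.

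For 16 named genes the adult minus young difference after fracture departed from that with no fracture in the limma interaction. Positive values were found for Lox (6.74), Acan (4.44), Cgref1 (4.37), Pdk4, a kinase that restrains pyruvate oxidation (3.95), Col11a1 (3.91), Col5a2 (2.46), Cntf (2.15), Spp1 (1.63), Col1a1 (1.51) and Fshb (0.67). Negative values were found for Hba-a3 (-4.10), Oprm1 (-3.40), Tshr (-3.38), Chrna4 (-3.12), Irf7 (-3.03) and Slc1a3 (-1.28). For Oprm1, Tshr and Chrna4, receptors of opioids, thyrotropin and acetylcholine, 7, 9 and 6 of the 12 arrays were under the floor, as were 8 for Fshb and 7 for Slc1a3. The adult intact signal of Cgref1 was 20, the floor itself. Each of these values rests on 1 intact array per age.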

How the results depend on the processing

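The call of 7 probe sets over all times became 0 with the 12 arrays alone, 0 with a floor of 100 (648 at an unadjusted limma p below 0.05) and 0 with no replicate block (no time factor; 251 unadjusted), 2 with quantile normalization, 3 with actin's 3'/5' ratio added to the fit, and 12 with fractured arrays only, 2 of them from the 7. Leaving out single times gave 0 to 12. The methods' t-test gave 21 at 0.005, a threshold that the methods state for another comparison, and 1 after Benjamini-Hochberg, of 8199 probe sets. The cause was not tested. Median centring gave 9 and an offset of 50 gave 7. The interaction count of 564 became 322 on the 12 arrays, 247 with an offset of 50 and 210 with a mean signal of at least 200, the last chosen after seeing the data; leaving out single times gave 400 to 678. A floor of 100 and an offset of 50 lowered the 2-fold counts by construction: with no fracture to 465 and 490, at 3 days to 232 and 234, at 1 week to 140 and 127, at 2 weeks to 214 and 221, at 4 weeks to 283 and 259, and at 6 weeks to 459 and 441. Over the alternatives 524 values were taken, of the 7 called genes and of the genes named for 1 direction at 6 of 6 times. None turned its direction. Leaving out a time or the time factor could not turn it, since all these genes had 1 direction at 6 of 6 times. Only the 7 called genes could lose a call, which happened in 79 values, and 5 values, all of Ighvl1, gained one. Fractured arrays only and leaving out no fracture were the same fit. Its values entered all these counts, and those of single genes below, under both names. Acan and Pdk4 lost the interaction on the 12 arrays and at a floor of 100. Arhgap30 and Efemp1 kept their call in 2 alternatives each, Myf6 in 9. Signals near the floor limit what can be read: at a floor of 100 Efemp1 had no difference and Cd40, which lost its call in 8 of 16 alternatives, -0.20. Time paired the arrays in the other fits. The labels name all arrays Series 2 and give no replicate numbers within that series. The paper describes more arrays of each age and time than were used here.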

Other observations

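Of 31 immediate early and heat shock genes, 24 had a higher adult mean (median 0.11), 3 at an unadjusted limma p below 0.05, with Hspa1a, an inducible HSP70 chaperone, at 0.61 and Hspb1, a small heat shock protein abundant in muscle, at 0.42. Of 17 cholesterol genes 15 had a higher adult mean (median 0.11), 2 at an unadjusted limma p below 0.05, and 9 read higher and 8 lower at 4 weeks. One member was Srebf1, a transcription factor of lipid synthesis, which read 66.6 and 62.5 in the young and 281.8 and 194.5 in the adult at 4 and 6 weeks. Ccl2, the monocyte chemoattractant, was higher at 6 of 6 times on 1 probe set (0.75) and at 5 of 6 on another (0.57). Cd36, a fatty acid transporter, read 60.8 to 138.1 in the young and 110.8 to 236.6 in the adult and was higher at 6 of 6 times (0.75), as was Fabp4, the adipocyte fatty acid-binding protein (0.46). None of these passed in limma.

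C3, complement component 3, read 1100.9 in the young and 1124.6 in the adult with no fracture and 326.1 and 33.2 at 6 weeks. Rsad2, an interferon-induced gene, read 9583.2 and 16209.1 with no fracture and 1580.6 and 210.1 at 2 weeks. Macroh2a1, a histone variant, was lower at 6 of 6 times (-0.39 ± 0.08, limma adjusted p = 0.158), as was Bmp4, a bone morphogenetic protein (-0.50 ± 0.18, limma adjusted p = 0.411). S100b, a calcium-binding protein of Schwann cells, fat and cartilage, read 37.5 and 380.5 with no fracture and 18.2 and 266.1 at 3 days, and 284.7 to 564.8 in the young and 358 to 442.5 in the adult later. Enpep, an aminopeptidase, read 16.1 and 15.6 in the young and 123.1 and 114.6 in the adult at 4 and 6 weeks.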
